A study of Rattus norvegicus with 8 samples.

Results

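The genes described here are 34 members of the sterol and fatty acid synthesis pathways that are regulated by the sterol regulatory element binding proteins. They were chosen by name, as every probe set whose single gene symbol in the platform annotation was one of the 34. The rule found 56 of the 31099 probe sets, which stood for 33 of the 34 genes, 19 of the sterol branch and 14 of the fatty acid branch. Hmgcs1 was matched by no probe set and was not analysed here. The filter on dim probe sets left 47 of the 56, for 32 genes, and the only probe set of Fads2 was not among them.

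Frontal cortex was taken from male Sprague-Dawley rats, an outbred strain, that weighed about 200 g at the start. Rats of one group were injected intraperitoneally with olanzapine, 2 mg/kg/day, for 21 days, and rats of the other received saline for 21 days. Each group held 20 rats, of which 4 were measured on arrays, and arrays are named here by group and animal number (saline 14, 15, 17 and 19; olanzapine 9, 14, 18 and 19). The tissue was homogenised whole, so that fewer cells of a type and less RNA per cell cannot be told apart.

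In animal cells the proteins encoded by Srebf1 and Srebf2 sit in the endoplasmic reticulum membrane, where Insig1 holds them back while sterols are plentiful. When sterols fall, they are cut, enter the nucleus and raise transcription of the enzymes that build cholesterol and fatty acids, the Srebf2 product acting mostly on the former and the Srebf1 product on the latter. The brain makes nearly all of its own cholesterol, with oligodendrocytes and astrocytes as main producers, and several antipsychotic drugs are known to raise transcripts of this group in cultured glioma cells.

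Promoter windows of 300 bases, from 250 before to 50 after the start of transcription, were available for 28 of the 34 genes from RefSeq (GRCr8). For each gene the first window listed was used. The CCAAT box bound by NF-Y, a factor known to act beside the sterol regulatory proteins, was found on either strand in 22 of the 28 windows, 78.6%, against 37.7% of the 27457 windows of all genes. By branch it was in 14 of 17 sterol windows and in 8 of 11 fatty acid windows. Of its 42 matches, 34 began within 150 bases before the start, a stretch that covers 150 of the 300 bases. Match positions were not counted in the windows of all genes. A GC box, GGGCGG, was in 78.6% of the 28 windows and in 34.9% of all windows. The E box CACGTG was in 3 of the 28 windows, those of Sc5d, Insig1 and Elovl5, and in 6.65% of all. The letters TCACNCCAC, one spelling of the sterol regulatory element, were in 0 of the 28 windows and in 1.13% of all. No match of one of these motifs overlapped a match of another.

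**Figure D1:**
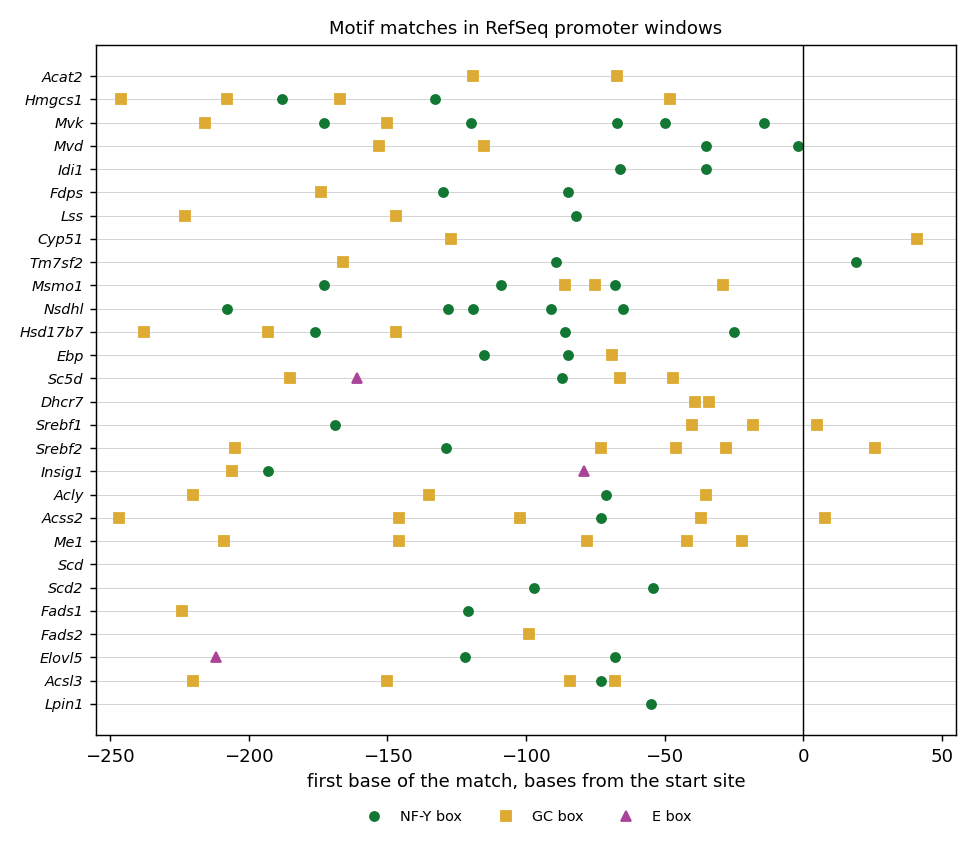
Positions of motif matches on either strand in the RefSeq windows of 28 genes, with the horizontal axis giving the first base of a match in bases from the start of transcription. Circles are CCAAT boxes, squares GC boxes and triangles E boxes. The windows of 22 genes hold a CCAAT box, and that of Scd holds none of these motifs.

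The windows of 5 genes are printed 5′ to 3′ in the direction of the gene, with each CCAAT box in capitals, as CCAAT or as its reverse complement ATTGG. Those of Scd2 and Scd are shown because these neighbouring desaturase genes had the smallest p and the only separate groups among the 32 genes. That of Acss2 is shown because its p was the next smallest, and those of Insig1 and Fdps as well known targets of the sterol regulatory proteins.
Scd2 (chr1:253118127-253118426, plus strand): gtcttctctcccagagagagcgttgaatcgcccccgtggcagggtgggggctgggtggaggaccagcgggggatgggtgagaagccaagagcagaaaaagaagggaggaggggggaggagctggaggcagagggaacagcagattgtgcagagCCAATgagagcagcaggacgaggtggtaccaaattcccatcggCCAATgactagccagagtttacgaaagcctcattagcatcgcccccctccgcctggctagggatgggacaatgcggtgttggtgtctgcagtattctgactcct
Scd (chr1:253231682-253231981, minus strand): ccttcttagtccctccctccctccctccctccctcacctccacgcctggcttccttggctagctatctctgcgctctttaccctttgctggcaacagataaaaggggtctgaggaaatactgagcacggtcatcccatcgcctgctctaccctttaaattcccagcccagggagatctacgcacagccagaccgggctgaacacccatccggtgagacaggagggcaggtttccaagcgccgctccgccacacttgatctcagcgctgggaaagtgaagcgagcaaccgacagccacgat
Acss2 (chr3:164464453-164464752, plus strand): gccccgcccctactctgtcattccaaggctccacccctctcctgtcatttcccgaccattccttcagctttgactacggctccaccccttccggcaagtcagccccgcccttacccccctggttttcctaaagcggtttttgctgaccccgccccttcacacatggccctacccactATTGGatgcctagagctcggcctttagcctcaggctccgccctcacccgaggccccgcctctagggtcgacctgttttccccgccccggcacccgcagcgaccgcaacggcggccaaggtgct
Insig1 (chr4:8057720-8058019, minus strand): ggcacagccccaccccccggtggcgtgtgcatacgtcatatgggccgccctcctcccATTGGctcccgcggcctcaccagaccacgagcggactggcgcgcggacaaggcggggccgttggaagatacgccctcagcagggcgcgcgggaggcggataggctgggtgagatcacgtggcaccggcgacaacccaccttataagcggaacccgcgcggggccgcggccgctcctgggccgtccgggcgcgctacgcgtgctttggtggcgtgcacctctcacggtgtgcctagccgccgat
Fdps (chr2:176804767-176805066, minus strand): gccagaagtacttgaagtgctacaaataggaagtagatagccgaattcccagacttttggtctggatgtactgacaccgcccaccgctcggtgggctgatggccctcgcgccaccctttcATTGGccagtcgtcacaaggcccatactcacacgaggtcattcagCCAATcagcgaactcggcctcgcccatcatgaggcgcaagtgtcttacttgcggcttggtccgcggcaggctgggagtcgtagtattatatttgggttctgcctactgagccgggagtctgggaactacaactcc
Scd2 and Fdps each held 2 CCAAT boxes, Acss2 and Insig1 each held 1, and Scd held none in this window.

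Across the pathway, transcript levels after olanzapine lay close to those after saline. With 1 probe set for each gene, 16 of the 32 genes were higher and 16 lower in olanzapine, 50.0% higher against a background of 53.4% among the 10123 genes tested. Differences ran from -0.36 for Srebf1 to 0.27 for Acss2 on the log2(intensity + 63.4) scale, which understates the change of dim genes. The median was -0.0065 for the 32 genes, beside 0.015 for all genes tested. It was 0.016 for the 19 sterol genes, which turned to -0.036 after median centring, where the median of all genes was -0.037. For the 13 fatty acid genes it was -0.044, which turned to 0.027 after quantile normalization and ran from -0.11 without olanzapine 14 to 0.020 without olanzapine 19.

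No member passed the test. By limma 0 of 47 member probe sets had an adjusted p under 0.05, against a background of 0% of 18625 probe sets, and adjusted p-values for the 32 genes ran from 0.409 to 0.991. At an unadjusted p under 0.05 there were 4 of 47 member probe sets, 8.51%, against a background of 8.32%. Of these, 2 were higher and 2 lower, where 4.59% and 3.73% of all probe sets were. The 4 values of one group lay wholly above the 4 of the other in 2 of the 47, 4.26%, against a background of 4.47%. One of these, of Hsd17b7, was higher in olanzapine, as were 2.4% of all probe sets, and the other, of Scd, was lower, as were 2.07%. Without saline 19 limma called 1 member, Scd2, and 0.569% of all probe sets.

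The 95% intervals of the differences are given on the same scale, which draws in those of dim genes. In 27 of the 32 genes, 84.4%, the interval lay within 1.5-fold of no difference in both directions, against 73.1% of all genes tested. The exceptions were Mvk, Idi1, Srebf1, Scd and Elovl6. On that scale the intervals of all 32 genes, and of 97.3% of all genes tested, lay within 2-fold. These shares were not matched for brightness. The 32 genes were brighter, at a median percentile of 71.5 against 57.6 for all genes tested. For Srebf1 the lower end, -0.996, was only just within 2-fold, and in most other settings its interval reached past 2-fold. Its difference was -0.41 (SE 0.31) after quantile normalization and -0.63 (SE 0.50) on plain log2 intensity. Without olanzapine 14 it was -0.54 (SE 0.31). The interval stayed within 2-fold with array weights and without olanzapine 19.

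**Figure D2:**
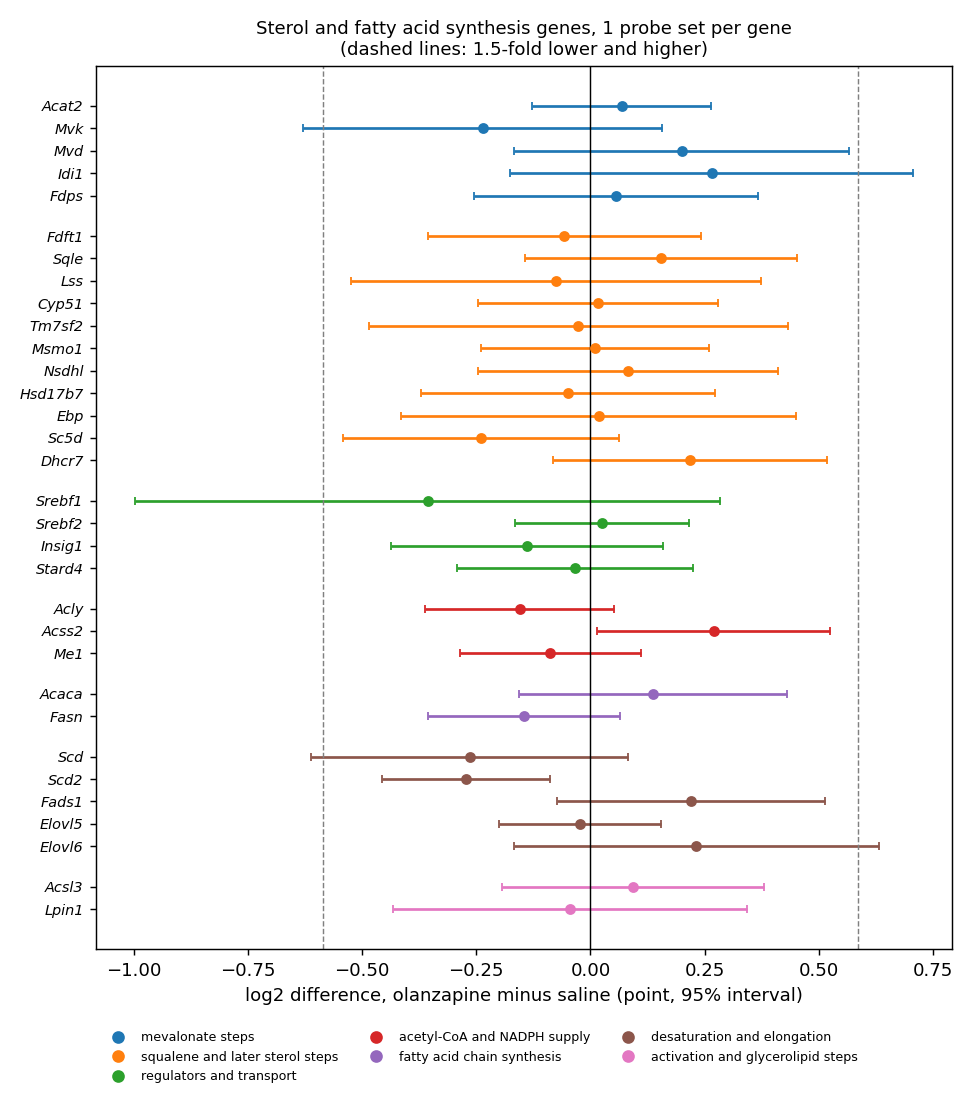
Log2 difference, olanzapine minus saline, for the 32 genes with a tested probe set, coloured by role; points are estimates and bars 95% intervals from limma with 4 rats per group. The dashed lines mark 1.5-fold lower and higher. Only the intervals of Acss2 and Scd2 lie clear of 0 before adjustment, 6.25% of the 32 genes, against 8.48% of all genes tested.

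Of the regulators and the sterol carrier, 1 of 4 genes was higher and 3 were lower, with a median of -0.087, and none passed the test. Srebf2, which encodes the main regulator of sterol genes, had intensities of 4154, 4642, 4302 and 4236 in saline 14, 15, 17 and 19. In olanzapine 9, 14, 18 and 19 it stood at 4414, 3926, 4364 and 4994. The groups overlapped throughout, and the difference was 0.026 (SE 0.090, 95% interval -0.17 to 0.22, limma adjusted p = 0.961).

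Insig1, itself a target gene whose transcript falls when sterols are plentiful, was at 3551, 2850, 4588 and 4809 in saline and at 3110, 3409, 3730 and 3821 in olanzapine. Every olanzapine value lay inside the saline range. Its difference was -0.14 (SE 0.14, limma adjusted p = 0.838), and it ran from -0.28 without saline 15 to -0.036 without saline 19.

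Srebf1, which encodes the regulator of fatty acid genes, was at 241, 237, 193 and 184 in saline. Its values in olanzapine were 169, 254, 234 and 35.1, so that 1 array, olanzapine 19, lay far below the other 7. The difference of -0.36 (SE 0.30, limma adjusted p = 0.808) became 0.020 without olanzapine 19. Stard4, a carrier of cholesterol between membranes, averaged 729 ± 82.3 after saline and 709 ± 51.5 after olanzapine (SD, n = 4 rats each), a difference of -0.034. A second, dimmer Stard4 probe set differed by -0.41 (SE 0.26, limma adjusted p = 0.738), the lowest of the 47 member probe sets, and its groups overlapped.

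In the mevalonate steps, which build the isoprenoid units of sterols, 4 of 5 genes were higher in olanzapine, with a median of 0.068, and none passed the test. Fdps, which makes farnesyl diphosphate, was at 678, 661, 666 and 584 in saline and at 755, 623, 513 and 852 in olanzapine. The olanzapine values spanned the saline ones on both sides, and the difference was 0.056 (SE 0.15, limma adjusted p = 0.944). It turned to -0.047 without olanzapine 19.

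The largest difference of these steps was that of Idi1, the isomerase that provides both isoprene forms, at 199 ± 75.3 after saline and 246 ± 44.3 after olanzapine (SD, n = 4 rats each), 0.26 on the log2 scale. A second Idi1 probe set differed by 0.37 (SE 0.21, limma adjusted p = 0.706), and in both sets the groups overlapped. Mvd, which removes a carboxyl group from the mevalonate product, differed by 0.20, and Acat2, which joins acetyl units at the start, by 0.068. Mvk, the mevalonate kinase gene, differed by -0.24.

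From squalene to cholesterol, 6 of 11 genes were higher and 5 lower, with a median of 0.0098 and no gene past the test. Fdft1, the squalene synthase gene, was at 1028, 1364, 1029 and 847 in saline and at 1054, 1099, 1069 and 836 in olanzapine. Apart from saline 15 and the low values of both animals numbered 19, the arrays lay close together. Its difference was -0.058 (SE 0.14, limma adjusted p = 0.941), and 0.061 without saline 15.

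Sqle, whose product oxidises squalene and is a control point of the branch, was at 666, 542, 610 and 771 in saline. In olanzapine it was at 679, 789, 602 and 840. Olanzapine 14 and 19 lay above every saline array, and olanzapine 9 and 18 inside the saline range. The difference was 0.15 (SE 0.14, limma adjusted p = 0.821). It was 0.080 without saline 15 and 0.087 without olanzapine 19, and 0.23 without saline 19 or olanzapine 18. Cyp51, the lanosterol demethylase gene, was at 1667, 1346, 2012 and 1741 in saline and at 1484, 1761, 1906 and 1656 in olanzapine. All olanzapine values lay inside the saline range, with a difference of 0.016 that turned to -0.036 after median centring. A second Cyp51 probe set differed by 0.22 (SE 0.14, limma adjusted p = 0.725).

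Dhcr7, which encodes the reductase of the last step to cholesterol, was at 678, 872, 521 and 603 in saline. Its olanzapine values of 773, 775, 801 and 750 were close together, and lay above all saline arrays except saline 15. The SD was 20.5 in olanzapine and 150 in saline, and the difference was 0.22 (SE 0.14, limma adjusted p = 0.744) with 0.34 without saline 15 and 0.12 without saline 17. Elsewhere in the later steps the monooxygenase gene Msmo1 differed by 0.0098, the isomerase gene Ebp by 0.018, the dehydrogenase gene Nsdhl by 0.082, the reductase gene Tm7sf2 by -0.026 and the lanosterol synthase gene Lss by -0.075.

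Sc5d, the sterol desaturase gene near the end of the branch, differed by -0.24 (SE 0.14, limma adjusted p = 0.715). A second Sc5d probe set was at 2171, 2336, 2236 and 1937 in saline and at 1417, 2315, 1721 and 1603 in olanzapine. There 3 of 4 olanzapine arrays lay below every saline array and olanzapine 14 lay among them. That difference was -0.31 (SE 0.13, unadjusted p = 0.0318, limma adjusted p = 0.540), and -0.22 without olanzapine 9 (unadjusted p = 0.123 by limma). Another, dimmer probe set differed by -0.035.

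Hsd17b7, which encodes a sterol keto reductase, differed by -0.049 in its brightest probe set (SE 0.15, limma adjusted p = 0.955). Its second probe set was at 200, 129, 204 and 272 in saline and at 319, 323, 1793 and 282 in olanzapine. The groups did not overlap, and olanzapine 18 stood apart from every other array. The difference was 1.10 (SE 0.41, unadjusted p = 0.0163, limma adjusted p = 0.497), the largest of the 47, and 0.51 without olanzapine 18. In the brightest probe set olanzapine 18 was at 607, beside 594 in olanzapine 19.

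**Figure D3:**
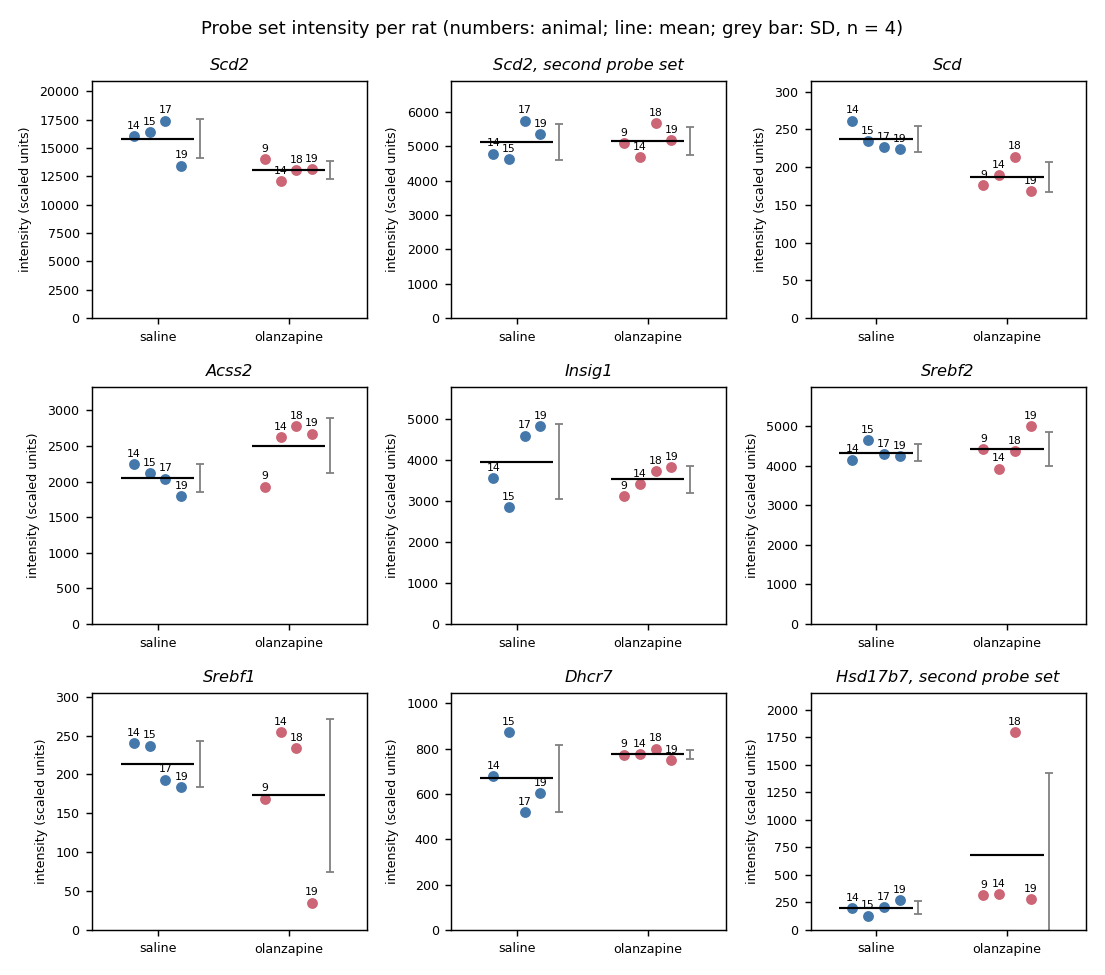
Intensity of 9 probe sets on each of the 8 arrays, in the scaled units of the deposited values, with animal numbers beside the points, a line for the group mean and a grey bar for the SD (n = 4; the lower end of the Hsd17b7 bar is off the axis). The groups are apart for Scd and for the second Hsd17b7 probe set, and overlap in the other panels.

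Acetyl-CoA for both branches comes from citrate through Acly and from acetate through Acss2. Acss2 was at 2250, 2120, 2040 and 1790 in saline, and at 1929, 2628, 2774 and 2672 in olanzapine. Olanzapine 14, 18 and 19 lay above every saline array, and olanzapine 9 lay among the saline arrays. The difference was 0.27 (SE 0.12, 95% interval 0.015 to 0.52), with an unadjusted p of 0.0396 and a limma adjusted p of 0.562. It ran from 0.21 without saline 19 to 0.39 without olanzapine 9, and it was 0.29 after quantile normalization and 0.22 after median centring. The unadjusted p by limma was 0.162 after median centring, and 0.0623 to 0.121 when saline 17 or 19 or olanzapine 14, 18 or 19 was left out.

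Acly, the ATP citrate lyase gene, was at 8999, 9585, 9158 and 7396 in saline and at 8529, 8243, 6805 and 7923 in olanzapine. Olanzapine arrays lay below saline 14, 15 and 17 and, except for olanzapine 18, above saline 19. The difference of -0.15 (SE 0.097, limma adjusted p = 0.734) was 0.027 after quantile normalization, -0.087 without olanzapine 18 and -0.23 without saline 19. Me1, the malic enzyme gene that provides NADPH, differed by -0.088 in one probe set and by -0.17 in a second.

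The chain itself is made by the products of Acaca, acetyl-CoA carboxylase, and Fasn, fatty acid synthase. Acaca was at 1129, 1147, 1071 and 1279 in saline and at 1097, 1017, 1551 and 1524 in olanzapine. Olanzapine 14 lay below the saline range, olanzapine 9 inside it and olanzapine 18 and 19 above it. The difference was 0.14 (SE 0.14, limma adjusted p = 0.837). It was 0.047 without olanzapine 18, 0.055 without olanzapine 19, 0.21 without olanzapine 9 and 0.24 without olanzapine 14.

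Fasn was at 3494, 4245, 3758 and 3823 in saline and at 3469, 3725, 3732 and 2930 in olanzapine. Olanzapine 9 and 19 lay below every saline array, olanzapine 9 by a small margin, and the other two inside the saline range. The difference was -0.15 (SE 0.099, limma adjusted p = 0.756), or -0.069 without olanzapine 19 and -0.096 without saline 15, and a second probe set differed by 0.015.

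Desaturases place double bonds in fatty acids, and Scd2 is the main stearoyl-CoA desaturase gene of the rodent brain. Its brightest probe set was at 16026.5, 16404, 17413 and 13435 in saline and at 14003, 12068, 13023 and 13108 in olanzapine. Saline 14, 15 and 17 lay above every olanzapine array, while saline 19 lay below olanzapine 9. The difference was -0.27 (SE 0.086, 95% interval -0.46 to -0.088, unadjusted p = 0.00661, limma adjusted p = 0.409). Without saline 19 it was -0.35 with a limma adjusted p of 0.0337, the only setting of 18 in which a member passed. Summed astrocyte markers were at 47877, 49924, 47202 and 42304 in saline and at 42883, 38968, 39354 and 38692 in olanzapine. In this Scd2 probe set and in the astrocyte sums saline 19 lay below olanzapine 9 and above the other olanzapine arrays. Summed oligodendrocyte markers were at 18154, 26701, 19295 and 15352 in saline and at 19540, 17050, 24647 and 18017 in olanzapine. There saline 19 was the lowest of the 8 arrays. Bright probe sets in general shared part of the Scd2 pattern. The brightest 5% of those tested, which include this Scd2 probe set, had a median of -0.15. The 98th percentile of intensity was 5618 in saline 19, inside the olanzapine range of 5474 to 5735 and below the other saline arrays. Under quantile normalization this Scd2 probe set differed by only -0.011, and the marker sums were not rescaled. The part of astrocytes or oligodendrocytes in the Scd2 values was not tested.

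The groups overlapped in the other Scd2 probe sets. The second brightest was at 4789, 4623, 5750 and 5353 in saline and at 5096, 4685, 5665 and 5187 in olanzapine. All olanzapine values lay inside the saline range, and the difference was 0.010 (SE 0.093, limma adjusted p = 0.988). Of 2 dimmer sets, one differed by 0.22 and the other by -0.23. After quantile normalization the brightest set differed by -0.011 and the second by 0.10.

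Scd, the neighbouring desaturase gene that is better known from liver and fat, was at 262, 235, 226 and 224 in saline. It was at 177, 189, 214 and 168 in olanzapine, below every saline array, and was the only gene of the 32 whose groups did not overlap. The difference was -0.26 (SE 0.16, limma adjusted p = 0.729), it ran from -0.32 to -0.23 with 1 array left out, and it was -0.32 after quantile normalization. Its 95% interval was wide, -0.61 to 0.083.

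Fads1, a desaturase of polyunsaturated fatty acids, was at 1915, 2106, 1412 and 1428 in saline and at 1997, 2076, 2246 and 1646 in olanzapine. Saline 17 and 19 lay below every olanzapine array and saline 14 and 15 among them. The difference was 0.22 (SE 0.14, limma adjusted p = 0.733), and 0.14 without either saline 17 or saline 19. Its genomic neighbour Fads2 was at 10.8 to 108 in saline and at 11.0 to 89.2 in olanzapine, in a probe set too dim to be tested.

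Elongases lengthen the chains, Elovl5 mostly polyunsaturated and Elovl6 saturated and monounsaturated ones. Elovl5 was at 5427, 5505, 5281 and 5025 in saline and at 5731, 4736, 5217 and 5252 in olanzapine, with olanzapine 9 highest and olanzapine 14 lowest of the 8. The difference was -0.023 (SE 0.083, limma adjusted p = 0.963), and 0.074 after quantile normalization. Elovl6 was at 572, 245, 427 and 454 in saline and at 533, 465, 510 and 461 in olanzapine. Saline 15 was low, and the difference of 0.23 (SE 0.19, limma adjusted p = 0.796) was 0.027 without it and 0.38 without saline 14.

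Among the last steps Acsl3, which activates fatty acids for use in lipids, averaged 1436 ± 222 after saline and 1534 ± 232 after olanzapine (SD, n = 4 rats each), a difference of 0.092. Lpin1, which makes diacylglycerol, differed by -0.044 in its brighter probe set and by 0.46 (SE 0.23, limma adjusted p = 0.636) in the other. Of the 12 member genes with several tested probe sets, 5 had sets of both signs.

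Of the 47 member probe sets, 16 lay in the brightest 20% of those tested, where the deposited values were lower in olanzapine with a median of -0.054. The brightest 5% of tested probe sets, 932 in all, had a median difference of -0.15 as deposited and of 0.0021 after quantile normalization. They included 5 member probe sets of 4 genes, those of Acly, Sc5d and Elovl5 and 2 of Scd2. At the 98th percentile the intensity was 5618 on the array of saline 19, at least 6174 on the other saline arrays and at most 5735 on those of olanzapine. How far this bears on single genes was not tested beyond the change of scaling.

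**Figure D4:**
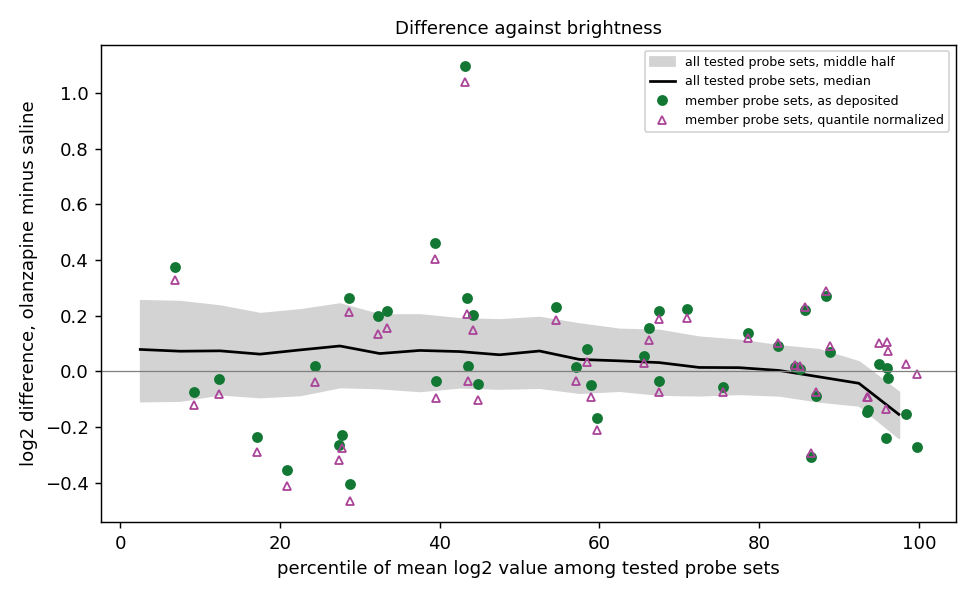
Log2 difference, olanzapine minus saline, against the percentile of mean log2 value among the 18625 tested probe sets. The line is the median and the band the range between the quartiles of all tested probe sets in steps of 5 percentiles; circles are the 47 member probe sets as deposited and triangles the same after quantile normalization. The line falls to -0.15 in the brightest step, and the brightest Scd2 point rises from -0.27 to -0.011.

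Array by array, the medians of both branches spread around 0. They rest on 19 and 13 genes and vary more than medians over 10123 genes for that reason. Their wider spread is therefore not read as a trait of the pathway. Saline 15 was the highest of the 8 arrays in 5 of the 19 sterol genes and the lowest in 5, and over all genes tested it was highest in 19.8% and lowest in 17.1%. Median deviations of the sterol genes from their means over the 8 arrays ran from -0.030 in saline 14 to 0.066 in olanzapine 19. For fatty acid genes they ran from -0.13 in olanzapine 19 to 0.13 in saline 14, and both groups held arrays on either side of 0. Those of all genes tested ran from -0.016 in saline 14 to 0.029 in olanzapine 9. The array means of the sterol genes were 9.65 ± 0.019 in saline and 9.66 ± 0.061 in olanzapine, and those of the fatty acid genes 10.69 ± 0.098 and 10.66 ± 0.11 (log2, SD over 4 arrays).

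**Figure D5:**
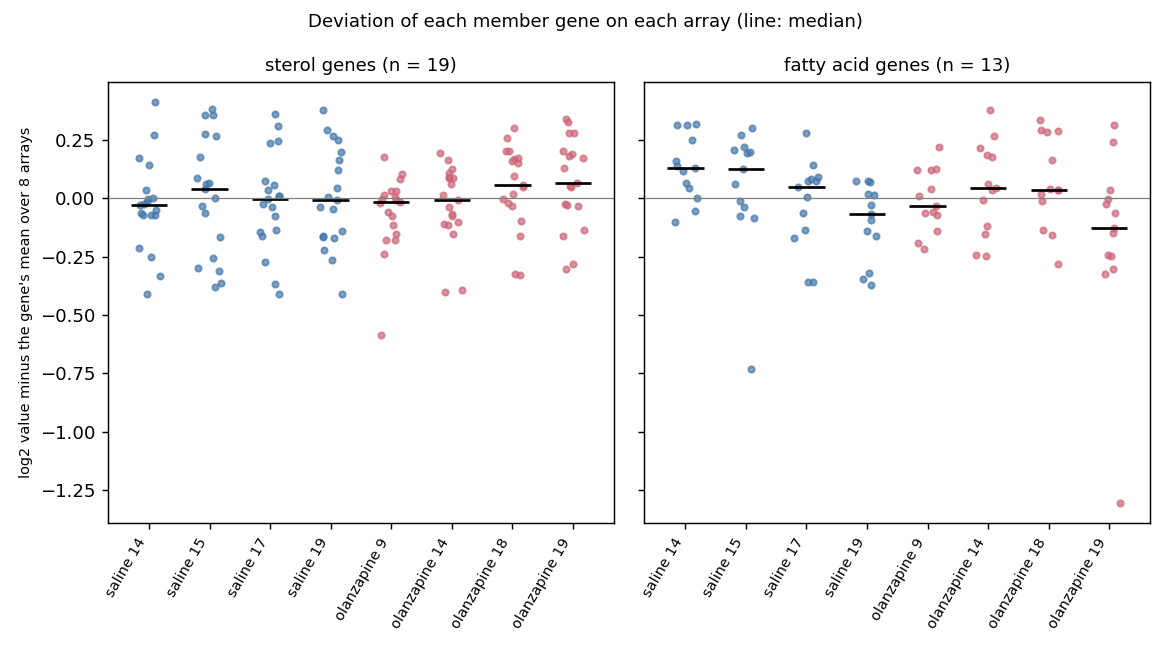
Log2 value of each gene on each array minus that gene's mean over the 8 arrays, for 19 sterol genes (left) and 13 fatty acid genes (right), with a line at the median. Medians stay between -0.13 and 0.13, and the lowest point on the right is Srebf1 in olanzapine 19.

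Within groups, the coefficient of variation was larger in saline than in olanzapine for 13 of the 19 sterol genes, 68.4%, against 62.7% of all genes tested. Its median for the sterol genes was 16.6% in saline and 11.0% in olanzapine, beside 16.7% and 13.7% for all genes tested. Of the 13 fatty acid genes, 6 had the larger value in saline, 46.2%, with medians of 10.7% and 10.9%.

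Markers of the cell types that make these lipids were read beside them. All 7 astrocyte markers were lower in olanzapine, with summed intensities of 42304 to 49924 in saline and 38692 to 42883 in olanzapine, overlapping between saline 19 and olanzapine 9. Their median difference was -0.19 as deposited, beside -0.15 for the brightest 5% of all tested probe sets. Marker values were not read after rescaling. Of 7 oligodendrocyte markers 6 were higher, with sums of 15352 to 26701 in saline and 17050 to 24647 in olanzapine. The oligodendrocyte median difference was only 0.040, and 56.0% of all tested probe sets were higher. All 7 markers of the meninges were higher, with sums of 2250.5 to 2882 in saline and 2992 to 8135 in olanzapine, highest in olanzapine 9. The meningeal median difference was 0.57, and these sums did not overlap between the groups. Neuronal markers of cortex were present, 3 of 4 excitatory and 5 of 5 GABAergic ones above the filter, and 0 of 3 adipocyte markers were above it. The part of these cell types in the values of the lipid genes was not tested.

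Of 26 other genes of the pathway that are not members, 19 were named on the array and 15 left by the filter, 6 higher and 9 lower in olanzapine, with a median of -0.024. By limma 0 of the 15 passed the adjusted test, and 1 had an unadjusted p under 0.05, 6.67% against 8.48% of all genes. That was Lpin2, which encodes a relative of the Lpin1 enzyme, at 4575, 5877, 3281 and 4024 in saline and at 3590, 3053, 3016 and 2616 in olanzapine. All olanzapine arrays except olanzapine 9 lay below every saline array. The difference was -0.50 (SE 0.15, unadjusted p = 0.00368, limma adjusted p = 0.373), and -0.36 without saline 15.

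Of the genes that carry and cut the sterol regulatory proteins, none passed the adjusted test. The escort gene Scap differed by -0.19 (SE 0.22), the protease genes Mbtps1 by 0.039 and Mbtps2 by 0.11, and Insig2 by -0.054. Acsl4, an enzyme gene that activates arachidonic acid, averaged 6270.2 ± 499.8 after saline and 5639.6 ± 131 after olanzapine (SD, n = 4 rats each), a difference of -0.15 (SE 0.081, limma adjusted p = 0.681). Brighter than Elovl5, it lay in the brightest 5% of tested probe sets, whose median difference was also -0.15.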

How the data were processed

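Frontal cortex RNA of 8 rats was hybridised to an Affymetrix rat array. The deposited values are linear probe set intensities, which the authors had scaled, since the mean after removal of 2% of values at each end was 500.1 to 500.2 on every array. The software and background correction behind them were not given in the sources used here, and no detection calls were used. Probe sets were named by the single gene symbol of the platform's 2016 annotation.

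Tests used log2(intensity + 63.4), where 63.4 was the 25th percentile over the 8 arrays. After the 57 control probe sets were set aside, those at or below the 40th percentile of mean log2 value were removed, which left 18625. Groups were compared with limma 3.58.1 under R 4.3.3 (lmFit, eBayes with trend), two-sided, with Benjamini-Hochberg adjustment over all 18625. The fit was tested on simulated data. Each array was 1 animal.

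The 34 genes, the lists and the tests were chosen with earlier results of these data known. Members fixed by role are given array by array, and so is any member at an unadjusted p under 0.05 or with separate groups. A gene's probe set is the one with the highest mean log2 value, and second probe sets were singled out after their values were seen. Alternatives were 3 other scalings, 2 other added values, 2 other filters, array weights, no trend, an animal number block and 1 array left out in turn.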

Additional observations from a re-analysis of the deposited data

Results flagged for a closer look

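In 3 of the 64 groups of 4 arrays formed by the 32 genes and both treatments, 1 array lay farther from the other 3 than Dixon's test allows at the 95% level, and chance alone flags about 1 in 20 such groups, or 3.2 here. Acss2 was at 1929 in olanzapine 9 against 2628 to 2774 on the other olanzapine arrays. Fdft1 was at 836 in olanzapine 19 against 1054 to 1099. Fdps was at 584 in saline 19 against 661 to 678 on the other saline arrays. All 3 were the lowest array of their group.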

How the results depend on the processing

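The count of member probe sets past the adjusted test stayed at 0 in every setting except without saline 19, so that it ran from 0 to 1 with 1 array left out. Member probe sets at an unadjusted p under 0.05 numbered 4, with 1 under the replicate block, and 2 (without olanzapine 18) to 7 (without saline 15) with 1 array left out. The sterol median of 0.016 became -0.036 after median centring and ran from -0.034 to 0.061 with 1 array left out, lowest without olanzapine 19 and highest without saline 15. The fatty acid median of -0.044 ran from -0.11 to 0.020. The median of all 32 genes, -0.0065, became -0.059 after median centring and ran from -0.030 to 0.043. The cause of these changes was not tested. Signs turned for Acly (0.027) and Elovl5 (0.074) after quantile normalization and for Elovl5 after cyclic loess (0.085). Median centring turned Cyp51 (-0.036) and Srebf2 (-0.026), and array weights turned Cyp51 (-0.013). With 1 array left out Cyp51 ran from -0.085 to 0.10, Elovl5 from -0.067 to 0.024, Fdft1 from -0.16 to 0.061, Fdps from -0.047 to 0.17, Srebf1 from -0.54 to 0.020 and Srebf2 from -0.034 to 0.081. The animal numbers 14 and 19 occur in both groups but belong to different animals, and the deviations of these arrays from their group means correlated at 0.075 and 0.11 over 18625 probe sets. The replicate block by number turned Elovl6 (-0.12) and Fdft1 (0.036). Precision is limited by 4 arrays per group, and detection calls were not used here.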

Other observations

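The 9 member probe sets too dim to be tested had mean intensities of 11.3 to 109.5 over the 8 arrays. A dim probe set of Mvk was at 120, 164, 89.9 and 166 in saline, at 205 in olanzapine 9 and at 25.4, 24.9 and 25.1 in olanzapine 14, 18 and 19. A dim probe set of Srebf2 was at 123, 9.38, 10.6 and 91.1 in saline and at 58.1, 88.5, 68.2 and 135 in olanzapine, so that it varied more within saline than between the groups. No detection call was used, and these values were not compared by a test.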
